A study of Homo sapiens with 4 samples.

Results

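The G1 control genes described here are 10 genes that govern the passage from G1 into S phase: the inhibitors CDKN1A, CDKN1B, CDKN1C and CDKN2C, the D cyclins CCND1 and CCND3, the kinases CDK4, CDK6 and CDK2, and the retinoblastoma gene RB1. They were taken by name from the 11650 genes with a value in each library, and all 10 were found by their gene identifiers. The RNA came from 92.1 cells, a human cell line grown from a uveal melanoma, which is a cancer of pigment cells in the eye, and was sequenced in 4 libraries, 2 of parental cells (Ctrl) and 2 of resistant cells (Res). The labels name no agent, dose or time of resistance, and leave unsaid whether the resistant cells are 1 clone and whether replicates were grown separately. All p-values therefore speak to library-to-library spread alone, and that spread may be technical. The cell line label reads 92.1, 93.1, 94.1 and 95.1 from the first sample to the last, while all titles name 92.1, and the titles were followed.

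Cells leave G1 when D cyclins bind CDK4 or CDK6 and phosphorylate the retinoblastoma protein, which releases E2F transcription factors. Cyclin E and cyclin A with CDK2 then complete that phosphorylation and start DNA synthesis. Inhibitors of the INK4 family, such as the CDKN2C product p18, bind CDK4 and CDK6 alone, while the CIP/KIP family (p21 from CDKN1A, p27 from CDKN1B, p57 from CDKN1C) binds cyclin-kinase complexes and holds CDK2 in check. In uveal melanoma, activating mutations of G alpha q proteins drive the mitogen signals that feed into the D cyclins.

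Values are FPKM, a fragment count scaled to transcript length and to the mapped fragments of the library, so levels can be compared between genes per length. True depth is unknown. The sum of FPKM lay between 282602 and 293481 over the 4 libraries. All 7 pigment cell markers examined had a value, with a summed level of 2584 and 2304 FPKM in the parental and 2992 and 2260 FPKM in the resistant libraries. Most of that sum was TYRP1 (1490 and 1484 against 2143 and 1514 FPKM), while 5 of the 7 had a log2 fold change below 0 (median -0.41). The melanin enzyme gene DCT had 4.88 and 5.46 against 0.486 and 0.517 FPKM (limma adjusted p = 0.0544), and the lineage factor SOX10 91.8 and 73.3 against 54.9 and 54.3 FPKM (limma adjusted p = 0.228). DCT and SOX10 were named after their values were seen, while the pigment markers MLANA and TYR overlapped between groups. Of the markers of other cell types, 3 of 6 epithelial, 4 of 7 fibroblast, 2 of 6 leukocyte, 3 of 4 retinal pigment epithelium and 0 of 4 endothelial genes had a value. The defining genes EPCAM, CDH1, PTPRC and PECAM1 had no value. Summed levels were 3.12 and 3.91 against 9.39 and 17.7 FPKM for the epithelial markers and 6.03 and 7.56 against 16.9 and 14.8 FPKM for the fibroblast markers (parental against resistant). The leukocyte markers stood at 32.6 and 27.4 against 13.2 and 10.7 FPKM, all of it CD68 and LCP1, and the retinal pigment epithelium markers at 5.29 and 4.69 against 4.48 and 3.08 FPKM. The part of these markers in the results below was not tested. In bulk RNA, fewer cells with a transcript and less transcript per cell cannot be told apart.

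The ratio of resistant to parental mean FPKM was 2.96 for CDKN1A, 0.598 for CDK2 and 1.08 for CCND1. None of the 10 genes passed the test over all genes (limma, Benjamini-Hochberg adjusted p under 0.05), which called 0.0584% of the 10271 genes tested (0.0487% higher and 0.00974% lower in resistant libraries). At an unadjusted limma p under 0.05 there were 3 of 10 (CDKN1A higher, CDK2 and CDKN1C lower), beside 16.2% of all genes tested (6.06% higher and 10.2% lower). For 7 of 10 genes every resistant library lay on the same side of both parental ones, 2 higher and 5 lower in resistant libraries, beside 51.0% of all genes (19.1% higher and 31.8% lower). The median log2 fold change of the 10 was -0.18, and that of all genes tested was -0.08. It was below 0 for 7 of the 10, beside 58.6% of all genes tested. All 10 had a mean above the filter of 1 FPKM in both groups, so none entered the test through 1 group alone. With 2 libraries a group, the smallest two-sided p of an exact permutation test is 0.3333, which each of the 7 genes without overlap gave.

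**Figure D1:**
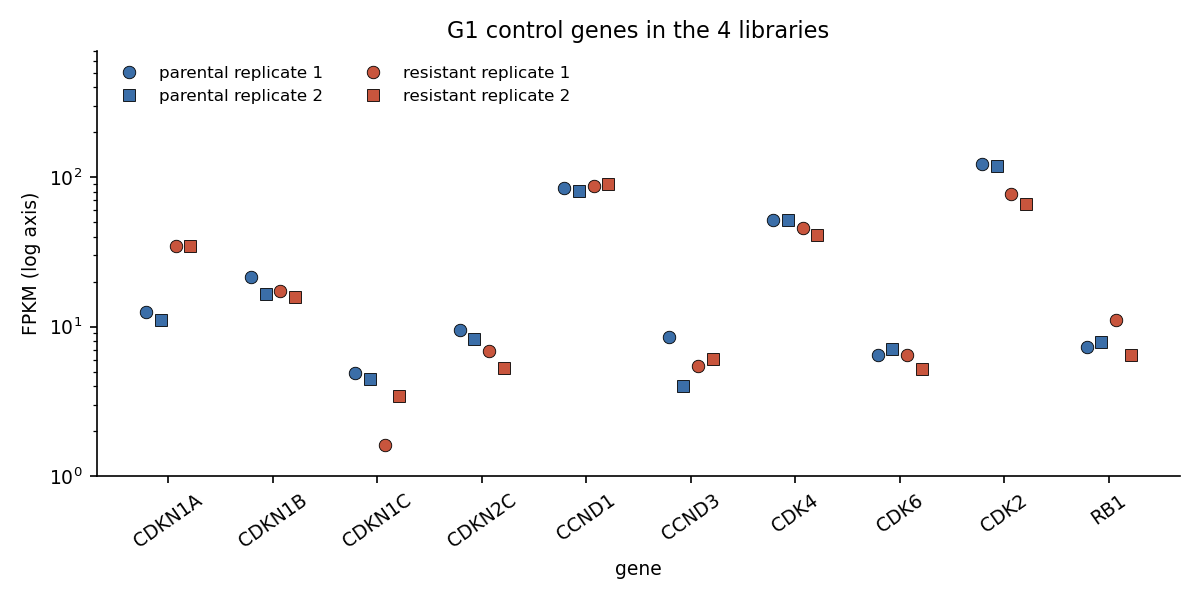
FPKM on a log axis for each of the 10 genes, with blue marks for the 2 parental and red marks for the 2 resistant libraries (circles replicate 1, squares replicate 2). CDKN1A is the gene with the widest gap between groups, with 11.02 and 12.5 FPKM against 34.6 and 34.8 FPKM. The CDKN1B, CCND3 and RB1 marks of the groups mix.

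Of the CIP/KIP inhibitors, CDKN1A encodes p21, which stops the cycle after stress. Its level was 12.5 and 11.02 FPKM in the parental and 34.8 and 34.6 FPKM in the resistant libraries. Both resistant libraries were higher than both parental libraries, and they differed from each other by a factor of 1.01. The log2 fold change on the log2(FPKM + 1) scale was 1.49 ± 0.16 (SE), with a 95% interval of 1.07 to 1.90 and a limma adjusted p of 0.078. By absolute log2 fold change it ranked 93 of the 10271 genes tested, and by p-value 24. The value lay between 1.41 and 1.59 over 12 alternative analyses, with limma adjusted p from 0.0586 to 0.192, so no alternative called it. CDKN1A (ENSG00000124762.13_2) is protein-coding and lies on chromosome 6 from 36676460 to 36687339 (GENCODE release 29, GRCh38, plus strand). DINOL, an RNA on the other strand that was not analysed here, shares 4.79% of its annotated exonic bases.

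CDKN1B encodes p27, the inhibitor that is high in resting cells and is destroyed through the SKP2 ubiquitin ligase as they enter S phase. It stood at 21.4 and 16.5 FPKM in the parental and 17.2 and 15.9 FPKM in the resistant libraries. The groups overlapped, since resistant replicate 1 lay between the parental libraries. Its log2 fold change was -0.17 ± 0.20 (SE), 95% interval -0.67 to 0.32, limma adjusted p = 0.689, and without parental replicate 1 it was 0.0045. CDKN1B (ENSG00000111276.10_3) lies on chromosome 12 from 12715058 to 12722371, plus strand.

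CDKN1C encodes p57, an imprinted inhibitor best known from embryonic growth control. Levels were low, at 4.86 and 4.49 FPKM in the parental and 1.62 and 3.41 FPKM in the resistant libraries. Both resistant libraries lay below both parental ones, but they differed from each other by a factor of 2.10. The log2 fold change was -0.74 ± 0.29 (SE), 95% interval -1.47 to -0.01, limma adjusted p = 0.305. It was -0.36 without resistant replicate 1 and -1.11 without resistant replicate 2. CDKN1C (ENSG00000129757.12_2) lies on chromosome 11 from 2883213 to 2885773, minus strand.

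The make-up of the CIP/KIP family, which restates the levels above and is no separate result, differed between the groups. A higher CDKN1A alone lowers the shares of the others, and the FPKM of CDKN1B overlapped between groups. Shares and ratios of genes within a library are not altered by a single scale factor per library, though quantile normalization can alter them. CDKN1A held 32.2% and 34.5% of the family's summed FPKM in the parental and 64.9% and 64.2% in the resistant libraries. CDKN1B held 55.2% and 51.5% against 32.1% and 29.5%. CDKN1C held 12.6% and 14.0% against 3.03% and 6.33%. CDKN1B was thus the most abundant of the 3 in both parental libraries and CDKN1A in both resistant libraries. The ratio of CDKN1A to CDKN1B was 0.583 and 0.669 in the parental and 2.02 and 2.18 in the resistant libraries (exact permutation p = 0.3333, two-sided, the smallest this design allows). The family's summed level was 38.7 and 32.0 FPKM against 53.6 and 53.9 FPKM.

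**Figure D2:**
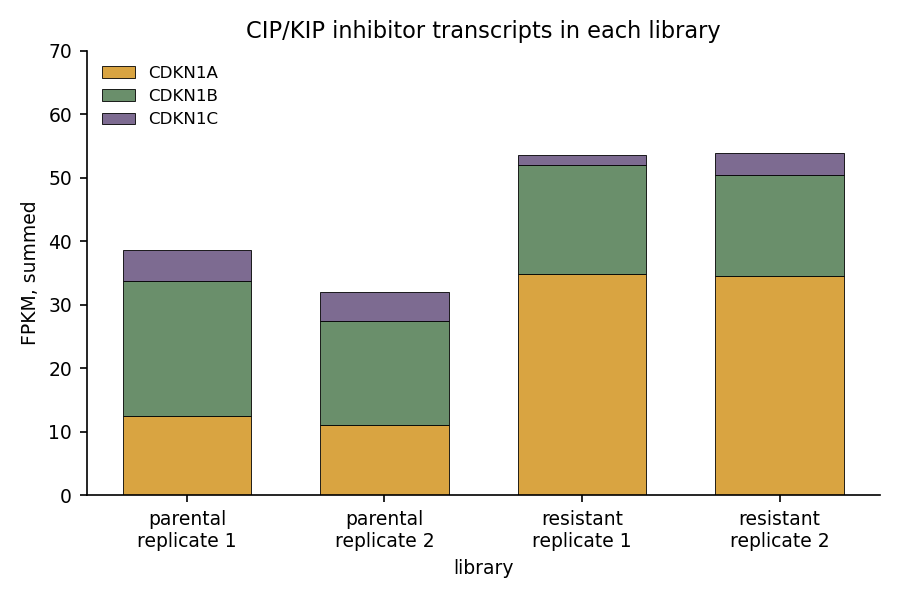
Stacked bars of the FPKM of CDKN1A, CDKN1B and CDKN1C in each of the 4 libraries, on a linear axis from 0. The sum is 38.7 and 32.0 FPKM in the parental and 53.6 and 53.9 FPKM in the resistant libraries, of which CDKN1A makes up 12.5 and 11.02 FPKM in the parental and 34.8 and 34.6 FPKM in the resistant libraries.

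The sequences before the starts of CDKN1A and CDKN1B are shown because these sister inhibitors had unlike values. Each run is the 250 bases upstream of the RefSeq start on the plus strand of GRCh38.p14, 5′ to 3′, with matches to the GC box GGGCGG on either strand in capitals (the letters to which SP1 family factors are known to bind). A RefSeq window was found for 7 of the 10 genes.
CDKN1A, chr6:36678464-36678713: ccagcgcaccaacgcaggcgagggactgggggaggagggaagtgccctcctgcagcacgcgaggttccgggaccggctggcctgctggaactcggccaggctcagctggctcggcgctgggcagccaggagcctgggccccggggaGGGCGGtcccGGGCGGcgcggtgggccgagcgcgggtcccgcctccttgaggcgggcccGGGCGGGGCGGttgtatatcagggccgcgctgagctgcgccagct
CDKN1B, chr12:12717118-12717367: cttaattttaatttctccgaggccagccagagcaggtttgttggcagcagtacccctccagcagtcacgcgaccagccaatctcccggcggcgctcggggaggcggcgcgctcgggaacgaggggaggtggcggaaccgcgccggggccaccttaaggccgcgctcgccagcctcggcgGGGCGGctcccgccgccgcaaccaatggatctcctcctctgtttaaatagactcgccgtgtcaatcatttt
The CDKN1A window held 4 such matches, 2 of which overlap by a base, and the CDKN1B window 1. At least 1 match was found in 42.6% of the 35116 windows of this length in the table, and 3 or more in 13.9%. The CDKN1B window also held 2 matches to CCAAT on either strand, which 32.0% of all windows hold, and the CDKN1A window none. The E2F motifs TTTGGCGC and TTTCCCGC, searched on both strands, were in neither window, and in 0.55% and 1.39% of all windows. A match is a string of letters and shows no binding.

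The INK4 inhibitor CDKN2C, whose product p18 binds CDK4 and CDK6, stood at 9.48 and 8.20 FPKM in the parental and 6.86 and 5.26 FPKM in the resistant libraries. Both resistant libraries were below both parental libraries. CDKN2C had a log2 fold change of -0.49 ± 0.21 (SE), 95% interval -1.01 to 0.04, limma adjusted p = 0.329. It ranged from -0.65 to -0.32 when a library was left out. CDKN2C (ENSG00000123080.10_2) lies on chromosome 1 from 50960745 to 50974633, plus strand. The other INK4 genes belong to a list of 19 further G1 genes. CDKN2D, which encodes p19, had 9.20 and 6.57 against 4.51 and 3.78 FPKM, the largest log2 fold change of that list (-0.78 ± 0.23 SE, limma adjusted p = 0.224). CDKN2A, which encodes p16 and ARF from 1 locus, had 11.1 and 6.10 FPKM in the parental and 8.99 and 6.85 FPKM in the resistant libraries, which overlap. CDKN2B stayed below 1 FPKM in every library (0.278 and 0.302 against 0.988 and 0.107 FPKM) and was not tested. CDKN2A and CDKN2B were named after their values were seen.

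Of the D cyclins, CCND1 was second to CDK2 among the 10 genes in both parental libraries and the most abundant of them in both resistant libraries. It encodes cyclin D1, which couples growth factor and G alpha q signals to CDK4 and CDK6. Its level was 84.3 and 80.6 FPKM in the parental and 86.8 and 90.5 FPKM in the resistant libraries. The resistant libraries were the higher pair by a small margin. Its log2 fold change was 0.10 ± 0.14 (SE), limma adjusted p = 0.742, with a 95% interval of -0.25 to 0.45 that leaves out a 2-fold change in either direction. CCND1 (ENSG00000110092.3_2) lies on chromosome 11 from 69641087 to 69654474, plus strand. LTO1, on the other strand, shares 10.3% of its annotated exonic bases and stood at 0.440 to 1.29 FPKM. No source used here says whether counting used strand.

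CCND3, which encodes cyclin D3, was far lower, at 8.52 and 3.99 FPKM in the parental and 5.42 and 6.02 FPKM in the resistant libraries. Both resistant libraries lay between the parental ones, which differed by a factor of 2.13. The log2 fold change was -0.04 ± 0.34 (SE), 95% interval -0.89 to 0.81, limma adjusted p = 0.964. Its sign turned with median-of-ratios scaling and quantile normalization, and the value was 0.43 without parental replicate 1 and -0.50 without parental replicate 2. CCND1 made up 90.8% and 95.3% of the FPKM of the pair in the parental and 94.1% and 93.8% in the resistant libraries. CCND3 (ENSG00000112576.12_3) lies on chromosome 6 from 41934933 to 42050357, minus strand. CCND2 had no value.

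The D cyclin partner CDK4 had 51.7 and 51.3 FPKM in the parental and 45.9 and 41.0 FPKM in the resistant libraries. The resistant libraries were the lower pair. CDK4 had a log2 fold change of -0.24 ± 0.15 (SE), 95% interval -0.63 to 0.14, limma adjusted p = 0.474. CDK4 (ENSG00000135446.16_3) lies on chromosome 12 from 57747727 to 57756013, minus strand, and shares 43.2% of its annotated exonic bases with TSPAN31 on the other strand, which stood at 0.951 to 1.67 FPKM. Its close relative CDK6 had 6.45 and 7.03 FPKM in the parental and 6.44 and 5.24 FPKM in the resistant libraries. The groups stayed apart by a narrow margin, with parental replicate 1 at 6.449 and resistant replicate 1 at 6.439 FPKM. Its log2 fold change was -0.18 ± 0.19 (SE), 95% interval -0.67 to 0.30, limma adjusted p = 0.665. CDK6 (ENSG00000105810.9_2) lies on chromosome 7 from 92604921 to 92836594, minus strand. CDK4 made up 87.7% to 88.9% of the FPKM of the pair in all 4 libraries, with overlapping groups. The ratio of CCND1 to CDK4 was 1.63 and 1.57 in the parental and 1.89 and 2.21 in the resistant libraries (exact permutation p = 0.3333, two-sided).

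CDK2, the kinase of cyclins E and A that the CIP/KIP proteins inhibit, was the most abundant of the 10 transcripts in both parental libraries and second to CCND1 in both resistant libraries. It had 121.7 and 118.3 FPKM in the parental and 77.4 and 66.2 FPKM in the resistant libraries. Both resistant libraries were lower than both parental libraries. The log2 fold change was -0.74 ± 0.15 (SE), 95% interval -1.12 to -0.36, limma adjusted p = 0.156. Over 12 alternatives it ranged from -0.85 to -0.63, with limma adjusted p from 0.0586 to 0.69. The ratio of CDK2 to CDK4 was 2.35 and 2.31 against 1.69 and 1.61, and that of CDKN1A to CDK2 was 0.102 and 0.0932 against 0.45 and 0.523. CDK2 (ENSG00000123374.10_2) lies on chromosome 12 from 55966769 to 55972784, plus strand. The whole of it lies inside the annotated span of PMEL on the other strand, with 89 shared exonic bases (2.29% of its own). PMEL, which encodes the fibril protein of melanosomes, had 619.9 and 380.0 FPKM in the parental and 394.5 and 337.8 FPKM in the resistant libraries. An antisense RNA that was not analysed here shares a further 14.5% of the exonic bases of CDK2. The part of reads from either in the CDK2 level was not tested.

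RB1, the target of these kinases, had 7.30 and 7.83 FPKM in the parental and 11.03 and 6.50 FPKM in the resistant libraries. The groups overlapped, with resistant replicate 1 the highest and resistant replicate 2 the lowest of the 4. RB1 had a log2 fold change of 0.15 ± 0.27 (SE), 95% interval -0.53 to 0.83, limma adjusted p = 0.811, and its sign turned without resistant replicate 1 (-0.19, against 0.49 without resistant replicate 2). RB1 (ENSG00000139687.13_2) lies on chromosome 13 from 48303726 to 48599436, plus strand, and shares no annotated exonic bases with another gene.

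**Figure D3:**
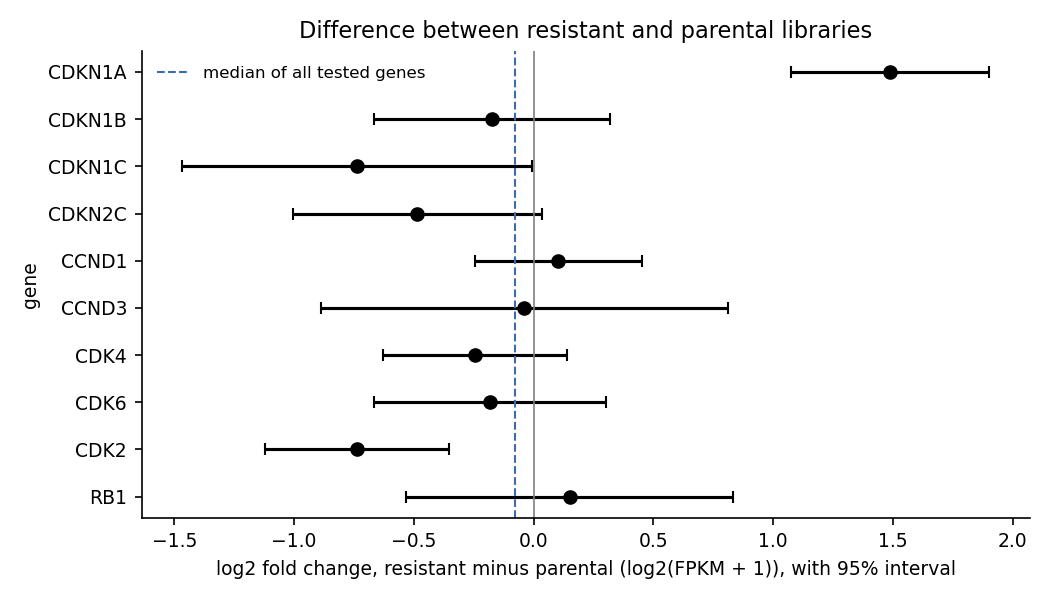
Log2 fold change of each of the 10 genes (resistant minus parental, log2(FPKM + 1) scale) with its 95% limma interval, beside a dashed line at the median of all tested genes (-0.08). The intervals of CDKN1A, CDK2 and CDKN1C lie off 0 and the other 7 hold it.

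Genes around this machinery gave few calls, as did all genes tested (0.0584%). For each list below, the shares to compare are those over all genes tested. At an unadjusted p under 0.05, limma gave 6.06% higher and 10.2% lower. The median log2 fold change of all genes tested was -0.08, and 58.6% lay below 0. Of the 19 further G1 cyclins, kinases and inhibitors, 16 were tested and 0 passed limma in either direction (0 higher and 3 lower at an unadjusted p under 0.05), with a median log2 fold change of -0.05. CCNA2, which encodes the S phase partner of CDK2, had 62.5 and 63.4 against 44.2 and 36.7 FPKM, parental against resistant (log2 fold change -0.63 ± 0.16 SE, limma adjusted p = 0.199). The mitotic kinase CDK1 was closer, at 48.5 and 49.2 against 45.9 and 41.0 FPKM. The CDK5 and ABL adaptor CABLES1 had 41.0 and 12.9 FPKM in the parental and 37.5 and 33.0 FPKM in the resistant libraries, and overlapped.

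The pocket proteins, E2F factors and DREAM complex subunits, which read out the state of the kinases, had 18 of 18 members tested and 0 past the limma threshold (0 at an unadjusted p under 0.05). Their median log2 fold change was -0.05. E2F1, an activator released from the retinoblastoma protein, had 17.0 and 13.5 against 11.4 and 9.64 FPKM. MYBL2, a partner of the MuvB core in late cycle transcription, had 63.6 and 63.1 against 55.0 and 45.97 FPKM. E2F3 (5.35 and 10.2 against 7.71 and 24.7 FPKM), LIN54 (5.56 and 1.88 against 5.99 and 4.70 FPKM) and TFDP1 (18.03 and 41.6 against 43.5 and 30.9 FPKM) overlapped between groups.

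E2F targets of the G1 to S transition, most of which encode replication proteins, had 29 of 29 members tested. Of these 0 passed limma, 0 were higher and 5 lower at an unadjusted p under 0.05, and 25 had a log2 fold change below 0 (median -0.25). Of all genes tested, 10.2% were lower at that p and 58.6% had a log2 fold change below 0 (median -0.08). MCM3, a subunit of the replicative helicase, had 87.3 and 92.1 FPKM in the parental and 59.1 and 49.8 FPKM in the resistant libraries. The clamp loader subunit RFC4 had 31.1 and 32.1 against 20.97 and 15.6 FPKM, and the flap nuclease FEN1 54.9 and 55.9 against 39.8 and 32.0 FPKM. In all 3 both resistant libraries were the lower. The sliding clamp PCNA, the most abundant of the list, overlapped at 207.0 and 225.0 against 263.1 and 208.4 FPKM. The cyclin E genes CCNE1 (5.56 and 4.24 against 4.67 and 4.87 FPKM) and CCNE2 (4.71 and 5.14 against 7.60 and 5.18 FPKM), named after their values were seen, had log2 fold changes of -0.02 ± 0.20 and 0.30 ± 0.23 (SE).

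Among 28 tested genes of cyclin and inhibitor turnover and assembly, limma called 1 higher, CRYAB, and 0 lower (3 higher and 1 lower at an unadjusted p under 0.05). CRYAB, a small heat shock protein that serves as an adaptor of the FBXO4 ligase for cyclin D1, had 2.08 and 4.31 FPKM in the parental libraries and rose to 89.6 and 88.7 FPKM in the resistant ones, a log2 fold change of 4.48 (limma adjusted p = 0.0268). That call was lost in 5 of 12 alternatives, with adjusted p up to 0.133 without resistant replicate 2. FBXO4 itself, named after its value was seen, had 1.80 and 1.41 against 2.32 and 2.43 FPKM. UBAC1, a subunit of a ligase for p27, had 29.9 and 27.9 against 18.1 and 14.2 FPKM. The scaffold gene CUL4A had 11.3 and 11.5 FPKM in the parental libraries and 10.6 and 1.84 FPKM in the resistant libraries, so 1 library sets its mean. HSP90AB1 and CKS2, the most abundant of the list, had log2 fold changes of -0.08 and -0.14.

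Mitogen input genes of the D cyclins had 22 of 24 members tested, 0 past limma, and a median of -0.07 (3 higher and 4 lower at an unadjusted p under 0.05). CCN1, a matricellular target of YAP, had 5.68 and 5.52 against 44.6 and 30.5 FPKM. MYC, a driver of G1 progression that also represses CDKN1A, had 8.23 and 7.85 against 3.06 and 4.67 FPKM (log2 fold change -0.91 ± 0.23 SE, limma adjusted p = 0.192). The pigment lineage factor MITF had 35.3 and 37.4 against 9.64 and 31.8 FPKM. JUND and CTNNB1, the most abundant of the list, overlapped.

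The list of stress, FOXO and TGF-beta genes mixes regulators of the inhibitors with genes that are themselves induced by stress. Most genes named here are of the stress-induced kind, so their levels do not measure input to CDKN1A. The list had 26 of 27 members tested, 0 past limma, and a median of -0.04 (4 higher and 1 lower at an unadjusted p under 0.05). The stress-induced genes PHLDA3 (3.41 and 3.46 against 8.93 and 9.88 FPKM), GADD45A (4.37 and 5.54 against 9.52 and 14.6 FPKM) and GDF15 (2.30 and 1.01 against 4.50 and 3.14 FPKM) were the 3 of largest log2 fold change on the list, and were higher in both resistant libraries. Other stress-induced genes on it, named after their values were seen, went both ways. TP53INP1 (5.09 and 4.41 against 10.1 and 5.95 FPKM) and ZMAT3 (3.92 and 6.28 against 12.7 and 6.54 FPKM) were also higher in both resistant libraries. So was FAS, at 1.05 and 0.776 against 1.23 and 1.42 FPKM. BBC3, which promotes apoptosis, had 1.77 and 1.92 against 1.23 and 0.808 FPKM, and SESN1 5.50 and 5.25 against 4.08 and 3.93 FPKM. BTG2, RRM2B, MDM2 and SESN2 overlapped between groups. The most abundant members were KLF6 (25.2 and 32.7 against 20.7 and 25.0 FPKM) and FOXM1 (9.65 and 17.5 against 10.99 and 9.30 FPKM).

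Proliferation markers had 12 of 12 members tested. Of these 0 passed limma, and 1 was higher and 3 lower at an unadjusted p under 0.05 (median -0.22). Of all genes tested, 6.06% were higher and 10.2% lower at that p (median -0.08). The chromosomal passenger kinase AURKB had 25.0 and 20.4 against 9.22 and 6.91 FPKM, and the spindle factor TPX2 46.5 and 46.7 against 28.2 and 17.9 FPKM. MKI67, the Ki-67 gene, had 3.29 and 6.92 against 9.09 and 11.1 FPKM. TOP2A (82.3 and 91.05 against 71.4 and 131.1 FPKM) and CCNB1 (62.6 and 65.3 against 69.6 and 52.8 FPKM) overlapped.

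**Figure D4:**
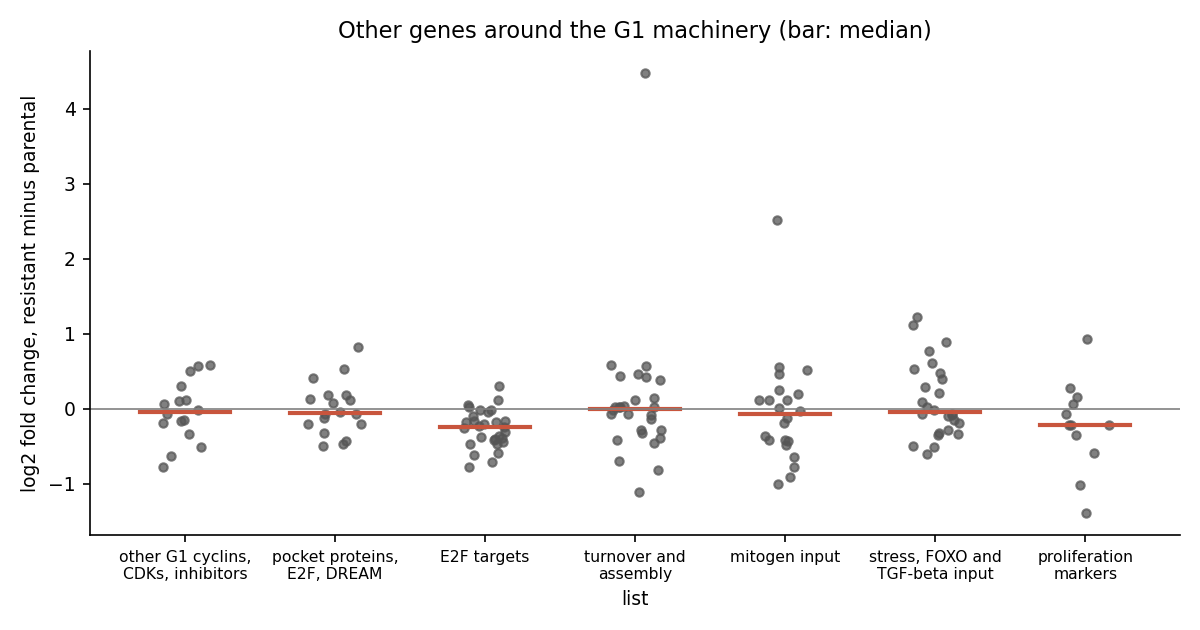
Log2 fold change (resistant minus parental) of each tested gene in 7 lists around the G1 machinery, 1 point per gene, with a red bar at the list's median. The E2F targets have 25 of 29 points below 0, and the top point of the turnover and assembly list is CRYAB at 4.48.

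The tested genes whose profile over the 4 libraries was most like that of CDKN1A were COL18A1, MSC and EMC10. Likeness was the Euclidean distance between log2(FPKM + 1) profiles after subtracting each gene's mean, at 0.105, 0.14 and 0.17. COL18A1, which encodes a basement membrane collagen, had 0.975 and 0.83 against 4.68 and 4.13 FPKM. With 4 libraries in 2 groups, such a distance mostly ranks genes by the size of their group difference.

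**Figure D5:**
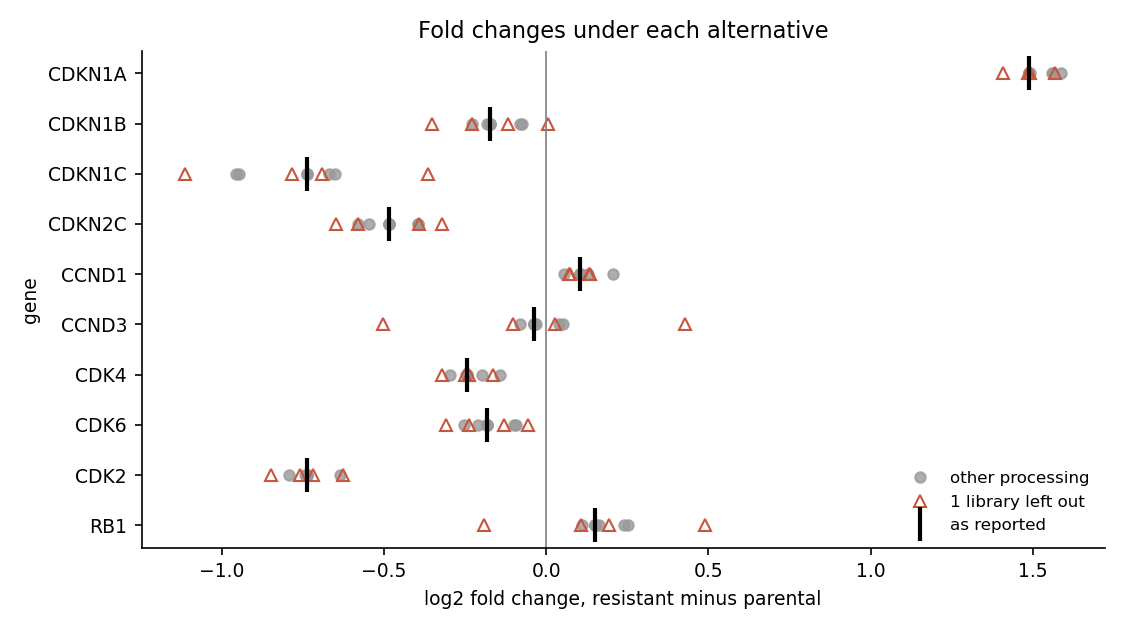
Log2 fold change of each of the 10 genes as reported (black bar), in the fits that leave out 1 library (open triangles) and in the other alternatives (grey dots). CDKN1A stays between 1.41 and 1.59 and CDK2 between -0.85 and -0.63, while CCND3, RB1 and CDKN1B reach both sides of 0.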

How the data were processed

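The authors deposited FPKM values, 1 per gene and library, per the file headers; the genome build was hg38, per the submitters' processing notes. No source used here names the aligner, the FPKM program, the gene annotation or whether strand entered the counting. Of 11650 gene identifiers, 11596 are in GENCODE release 29, whose GRCh38 positions are given. However, 11551 carry a suffix of the kind that GENCODE gives to annotation mapped back to an older build, so the positions and exonic overlaps printed may not be those of the gene models the authors counted on. Every gene had at least 1 group with a mean of 0.5009 FPKM or more. Libraries are messenger-enriched or ribosomal RNA-depleted and made by a dUTP method, per the labels' protocols, which do not say which route applied.

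Values were taken as log2(FPKM + 1), and the test took the 10271 genes whose 4-library mean reached 1 FPKM. Such fold changes understate the change of low genes. Resistant and parental libraries were compared with the moderated two-sided test of limma 3.58.1 in R 4.3.3, its variance trend switched on, and p-values were adjusted over all genes tested (Benjamini-Hochberg, threshold 0.05). The fit was tested on simulated data, in 20 runs with 200 of the more abundant genes changed in each. It called 3.55% of 2-fold and 55.05% of 4-fold changes, and 3.46% of its calls were false. A gene without a call may therefore still differ between the groups. CDKN1C, CDKN2C, CCND3, CDK6 and RB1 lay below the level of the genes changed, so the shares called may not hold for them. Noise was drawn for each gene apart, so no shift shared by the genes of a library was simulated. Python 3.11.15 drew the figures and wrote the summaries. Promoter letters are from RefSeq (GRCh38.p14).

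The 10 genes and the lists were chosen with earlier results of these data known. All 10 are named. Of each other list the text names the 3 tested genes of largest absolute log2 fold change and the 2 of highest mean, and the 3 genes nearest in profile to the gene with the largest change. Cell type markers, and genes whose annotation overlaps the 10, are named outside that rule. Other named genes are marked as chosen after their values were seen. List members without a value (CCND2, CDK3, WWTR1 and KLF4) or below the filter (CDKN2B, USP2 and FOSL2) were not tested. Alternatives were the pseudocount, the filter, 3 scalings, no variance trend, the replicate number as a block, and leaving out each library. Replicate numbers are shared between groups, but the labels do not say that they pair the samples. The value of 1 list gene is not reported here.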

Additional observations from a re-analysis of the deposited data

How the results depend on the processing

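Of the 10 G1 genes 0 passed the limma threshold in any of the 12 alternatives (2 to 4 at an unadjusted p under 0.05, against 3 in the analysis as reported). Over all genes, limma called 5 higher and 1 lower. With a pseudocount of 0.1, median-of-ratios scaling or quantile normalization it called 3 higher, and with a common sum 6 higher and 3 lower. Leaving out 1 library gave 0 to 19 higher (0 without either resistant library, where limma gave 1107 and 1031 at an unadjusted p under 0.05, and 17 and 19 without either parental one) and 0 to 13 lower. The cause was not tested. The lone library left in a group is assumed to vary like the others. The replicate differences of the parental and resistant libraries had a correlation over genes of -0.0709. With 1 such difference per group, this cannot settle whether the shared replicate numbers pair the samples. With the replicate block limma called 4 higher, 1 lower and 0 of the G1 genes, with adjusted p = 0.109 for CDKN1A and 0.192 for CDK2.

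Signs turned for CCND3 with median-of-ratios scaling (0.0522) and quantile normalization (0.0400), for HSP90AB1 with median-of-ratios scaling (0.0287), for CTNNB1 with both (0.0733 and 0.0203) and for CCNB1 with median-of-ratios scaling (0.0267). When 1 library was left out, log2 fold changes ran from -0.35 to 0.0045 for CDKN1B, -0.50 to 0.43 for CCND3, -0.19 to 0.49 for RB1, -0.21 to 1.38 for CABLES1, -0.0571 to 1.13 for LIN54, -0.18 to 0.99 for TFDP1, -0.0497 to 0.28 for PCNA, -0.19 to 0.0351 for HSP90AB1, -0.16 to 0.56 for JUND, -0.42 to 0.37 for CTNNB1, -0.74 to 0.0614 for FOXM1, -0.27 to 0.59 for TOP2A and -0.27 to 0.12 for CCNB1. CDKN1C ran from -1.11 to -0.36 and gave no value where the minimum mean was 5 FPKM. The median of the E2F targets was -0.39 without resistant replicate 1. The medians of 5 lists turned above 0 under median-of-ratios scaling: further G1 genes (0.0444), pocket proteins and E2F factors (0.0127), turnover and assembly (0.0817), mitogen input (0.0151) and stress, FOXO and TGF-beta genes (0.0369). Depth is unknown, so no counting error could be given.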

Other observations

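The ratio of CDK2 to PMEL, the gene whose annotated span encloses it on the other strand, was 0.196 and 0.311 in the parental and 0.196 and 0.196 in the resistant libraries. It was chosen after the values were seen. In the parental libraries PMEL stood at 619.9 and 380.0 FPKM and CDK2 at 121.7 and 118.3 FPKM. Whether the levels of CDK2 and PMEL are linked was not tested.

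Several genes that act on the G1 machinery differed more between replicates than between groups. SKP2, the ligase subunit that recognises p27, had 11.7 and 3.64 FPKM in the parental and 5.42 and 10.2 FPKM in the resistant libraries. FOXO3, a factor that drives CDKN1B in resting cells, had 5.21 and 5.12 against 1.75 and 5.80 FPKM. By contrast, CKS1B, the SKP2 cofactor for p27, had 45.0 and 46.5 against 70.1 and 66.3 FPKM, with groups that did not overlap (log2 fold change 0.57 ± 0.14 SE, limma adjusted p = 0.196). These 3 genes were chosen after their values were seen.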
